A study of Homo sapiens with 6 samples.

Results

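The 9 genes described here encode granule proteins and other effector proteins of neutrophils and monocytes: MPO, ELANE, PRTN3, AZU1, CTSG, LYZ, S100A8, S100A9 and S100A12. They were listed by name, with earlier results of these data known, from 20162 protein-coding genes annotated on GRCh37 and 19666 on GRCh38. For each gene, every peak of 4 peak lists was taken that touched its window, which was the gene body with 20 kb on either side. A peak within 1 kb of an annotated start of the gene was called a promoter peak, and every other peak of the window a distal peak. MPO, ELANE, PRTN3, AZU1 and CTSG are grouped as the 5 early granule genes and are contrasted with S100A8 and S100A9.

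Neutrophil precursors make the proteins of the primary, or azurophil, granules at the promyelocyte stage, and transcription of these genes is shut off as the cells mature. S100A8 and S100A9 are instead abundant in maturing neutrophils and in monocytes, where their products pair to form calprotectin. Acetylation of lysine 27 of histone H3 (H3K27Ac) is found at active promoters and enhancers, and trimethylation of lysine 4 of histone H3 (H3K4me3) at active promoters.

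Both marks were mapped by ChIP-seq with on-bead tagmentation in cells labelled OCI-AML3, a human acute myeloid leukemia (AML) line that carries mutant NPM1 (mtNPM1). The cells were transfected either with sgNeg, a control guide RNA, or with sgNpm1A, a guide RNA directed at mtNPM1, and the comparison asks what depletion of mtNPM1 did to these marks. The labels give 3 days of culture after transfection, whereas the methods of the study give a longer time. Each guide and mark had 1 library, all labels name the same line, and the 2 input libraries were not analysed here. No group had a replicate, so the values below describe single libraries, no difference between guides was tested, and intervals cover counting error only.

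The H3K27Ac lists held 327715 peaks for sgNeg and 317059 for sgNpm1A, on GRCh37. The H3K4me3 lists held 353628 and 106641 peaks, on GRCh38. The fold is the enrichment of a peak over the background of its library, and a gene without a peak may still carry signal below the weakest peak listed, which had a fold of 2.54, 2.66, 2.50 and 2.80 in the same order. Because folds are scaled within a library, the percentile of a peak's fold among all peaks of its list was compared between guides. Peaks with a q-value under 1e-05 lay within 1 kb of the start of 31.8% of gene records in sgNeg H3K27Ac and of 50.1% in sgNeg H3K4me3, against 0.268% and 1.27% in the sgNpm1A lists. The same lists were set against the gene starts of the other build, which mostly fall elsewhere in these coordinates. There the shares were 5.17% and 10.7% in the sgNeg lists, and 0.524% and 1.76% in the sgNpm1A lists, above those on their own build. With peaks of any q-value, 69.8% of gene records in sgNeg H3K27Ac and 64.7% in sgNeg H3K4me3 had a peak at the start, against 37.0% and 28.6% on the other build. In sgNpm1A it was 32.3% against 32.2% for H3K27Ac and 7.66% against 10.4% for H3K4me3. Peaks of the sgNpm1A lists thus lay at gene starts no more often than at positions of a mismatched build, for all genes together, and each comparison of guides below carries this difference between the lists. With 1 library per guide, the guide and the library cannot be told apart. Among marker genes of cell types, 6 of 7 myeloid blast genes had a promoter peak in sgNeg H3K27Ac, at a median percentile of 96.7. The B cell, T cell, erythroid and liver markers had one in 3 of 3, 3 of 3, 3 of 4 and 2 of 3 cases. Of all protein-coding genes, 79.1% had one. The median percentiles of these 4 lists were 69.2, 25.3, 50.01 and 30.0. In sgNeg H3K4me3, 5 of 7 myeloid blast genes had a promoter peak, near the 68.3% of all genes. For the other types it was 0 of 3, 1 of 3, 1 of 4 and 0 of 3. The sgNpm1A lists did not separate these cell types in the same way. In sgNpm1A H3K27Ac, 6 of 7 myeloid blast genes had a promoter peak (57.0% of all genes), at a median percentile of 66.6. The B cell, T cell, erythroid and liver markers had medians of 36.5, 63.1, 9.88 and 0. The blast markers thus still had the highest median, but that of the T cell markers was close. In sgNpm1A H3K4me3, 0 of 7 myeloid blast genes and 1 of 3 T cell genes had a promoter peak, where 9.49% of all genes had one. The names of the H3K27Ac lists carry the tag OCI2 and those of the H3K4me3 lists OCI3, although each label says OCI-AML3. The meaning of these tags was not given, and whether they stand for another run or another line was not settled. The study also used OCI-AML2, a line that before editing carried wild-type NPM1 only. The lists show no readout of the NPM1 mutation itself, so that loss of mtNPM1 could not be checked in them.

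RefSeq promoter sequences of GRCh38.p14, from 250 bases before to 50 bases after a start, were at hand for 6 members. A pair of early granule genes and the calprotectin pair are printed 5′ to 3′ on the gene's own strand, since the contrast below turns on them. Capitals mark matches, on either strand, to TATAAA (the TATA box), GAGGAA (PU.1 and other ETS factors), TTNCNNAA (C/EBP), AACNGA (MYB) or TGTGGT (RUNX). Neighbouring matches may run together. AZU1 is at chr19:827587-827886 (plus strand), CTSG at chr14:24576201-24576500 (minus strand), S100A8 at chr1:153391024-153391323 (minus strand) and S100A9 at chr1:153357604-153357903 (plus strand). For S100A8, which has 3 starts in the table, the one with a TATA box upstream is shown.
AZU1: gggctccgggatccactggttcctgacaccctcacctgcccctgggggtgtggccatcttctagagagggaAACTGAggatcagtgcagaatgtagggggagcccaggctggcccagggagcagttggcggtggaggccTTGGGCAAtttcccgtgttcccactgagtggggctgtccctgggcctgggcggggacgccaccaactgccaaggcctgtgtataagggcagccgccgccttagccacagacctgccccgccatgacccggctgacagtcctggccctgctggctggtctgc
CTSG: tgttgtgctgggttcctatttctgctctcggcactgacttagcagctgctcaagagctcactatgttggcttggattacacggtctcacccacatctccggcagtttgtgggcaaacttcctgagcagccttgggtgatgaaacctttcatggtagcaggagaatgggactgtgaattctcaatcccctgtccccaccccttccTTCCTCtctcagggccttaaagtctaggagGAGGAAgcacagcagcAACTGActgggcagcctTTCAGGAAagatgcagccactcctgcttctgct
S100A8: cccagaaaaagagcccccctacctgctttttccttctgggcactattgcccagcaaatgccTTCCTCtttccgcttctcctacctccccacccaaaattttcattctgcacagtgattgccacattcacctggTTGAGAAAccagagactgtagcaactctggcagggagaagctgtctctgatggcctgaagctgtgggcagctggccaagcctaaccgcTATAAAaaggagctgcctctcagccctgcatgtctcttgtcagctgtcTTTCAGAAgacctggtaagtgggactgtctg
S100A9: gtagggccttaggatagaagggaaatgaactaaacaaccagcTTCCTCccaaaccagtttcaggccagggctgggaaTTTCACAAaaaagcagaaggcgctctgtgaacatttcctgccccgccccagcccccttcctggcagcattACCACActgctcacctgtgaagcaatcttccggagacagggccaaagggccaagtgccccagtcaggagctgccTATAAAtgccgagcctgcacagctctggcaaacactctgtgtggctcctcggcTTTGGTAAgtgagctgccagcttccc

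The exact string TATAAA was found in S100A8, S100A9 and S100A12, and in none of AZU1, CTSG and PRTN3. The sequences of AZU1 and PRTN3 hold TATAAG, which differs in the last base and was not counted. TATAAA began 29 bases before the start in S100A9 and before the S100A8 start shown, but only 8 bases before the start in S100A12. A gene was counted if any of its promoter sequences held the motif, and 13.99% of the 27305 genes of the table did for TATAAA. Over the 35116 single sequences the share was 11.5%. C/EBP is a family of factors that drives granule genes, and its motif was found in 6 of 6 members, against 41.8% of all genes. The MYB motif was in 5 of 6 members (37.8% of all genes), for S100A8 only at a start other than the one shown. GAGGAA was in CTSG, PRTN3, S100A8 and S100A9 (31.8% of all genes), and TGTGGT in S100A9 alone (15.6%). A match describes letters and says nothing of binding.

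AZU1, PRTN3 and ELANE lie next to each other on the plus strand of chromosome 19, from 825097 to 856247 on GRCh37, and their windows overlap, so that they share peaks. AZU1 encodes azurocidin, an antimicrobial protein without protease activity. Its highest H3K27Ac promoter peak in sgNeg spanned 819666 to 828765, was 9100 bp wide and had a fold of 10.97, which placed it at rank 79 of the whole list. This peak also covered the start of the neighbour PLPPR3. In sgNpm1A the only peak at the AZU1 promoter was 160 bp wide, with a fold of 2.66, the lowest in that list, and a percentile of 3.21 against 99.98 in sgNeg.

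ELANE encodes neutrophil elastase, a serine protease of the azurophil granule. In sgNeg H3K27Ac its promoter lay under a peak from 843294 to 853607, 10314 bp wide, with a fold of 7.58 and rank 797. In sgNpm1A there was no H3K27Ac peak within 1 kb of an ELANE start, and the nearest began 11.75 kb away at a percentile of 42.7. PRTN3 encodes proteinase 3, another serine protease of these granules. The ELANE peak also covered a second annotated PRTN3 start, at 843341, and so counted for PRTN3 as well. At the main PRTN3 start, 840999, a separate sgNeg peak of 2397 bp had a fold of 4.64 and a percentile of 97.7. No sgNpm1A H3K27Ac peak lay within 1 kb of either start. In bulk chromatin, fewer cells with a mark and less of the mark per cell cannot be told apart.

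H3K4me3 was strong at a pair of these promoters in sgNeg and was not called at any of the 3 in sgNpm1A. At ELANE a peak of 1558 bp, from 852049 to 853606 on GRCh38, reached a fold of 11.02 and rank 1072 of its list. That fold corresponded to 52 fragments at the summit (95% exact Poisson interval 38.8 to 68.2), over a background of 3.81 fragments. At AZU1 a peak of 731 bp had a fold of 6.45, or 30 fragments (20.2 to 42.8). In sgNeg, PRTN3 had no H3K4me3 peak within 1 kb of its only annotated start on GRCh38, 840999. The nearest peak (843293 to 843408) began 2.29 kb away with a fold of 3.54. PRTN3 has the same coordinates on both builds, so this peak covered the second start, 843341, that was counted for H3K27Ac. In sgNpm1A the nearest peaks lay 13.9 kb from the AZU1 start, 27.1 kb from that of PRTN3 and 21.3 kb from that of ELANE. The weakest peak of the sgNpm1A list had 10 fragments over a background of 2.93.

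Over the union of the windows of the 3 genes, peaks covered 70.3% of 71.2 kb in sgNeg H3K27Ac and 6.84% in sgNpm1A, with 20 and 8 peaks. Without the peaks at a promoter of these genes, 17 and 7 peaks covered 39.7% and 6.61%. The strongest distal region in sgNeg was a peak of 21009 bp and a fold of 7.20 upstream of AZU1, at the starts of PLPPR3 and PTBP1. Downstream of ELANE a peak at the start of CFD, the gene of complement factor D, had a fold of 5.52. Of the 20 sgNeg H3K27Ac peaks, 5 shared at least 1 bp with a sgNpm1A peak (25%, 95% Wilson interval 11.2 to 46.9), where 50.7% of the whole list did. Of the 16 sgNeg H3K4me3 peaks, 0 did (upper limit 19.4%), where 22.6% of the whole list did. The median H3K27Ac coverage of a protein-coding gene's window was 9.81% in sgNeg and 6.73% in sgNpm1A, so that the locus was 7.17 times the median gene in sgNeg and 1.02 times in sgNpm1A.

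**Figure D1:**
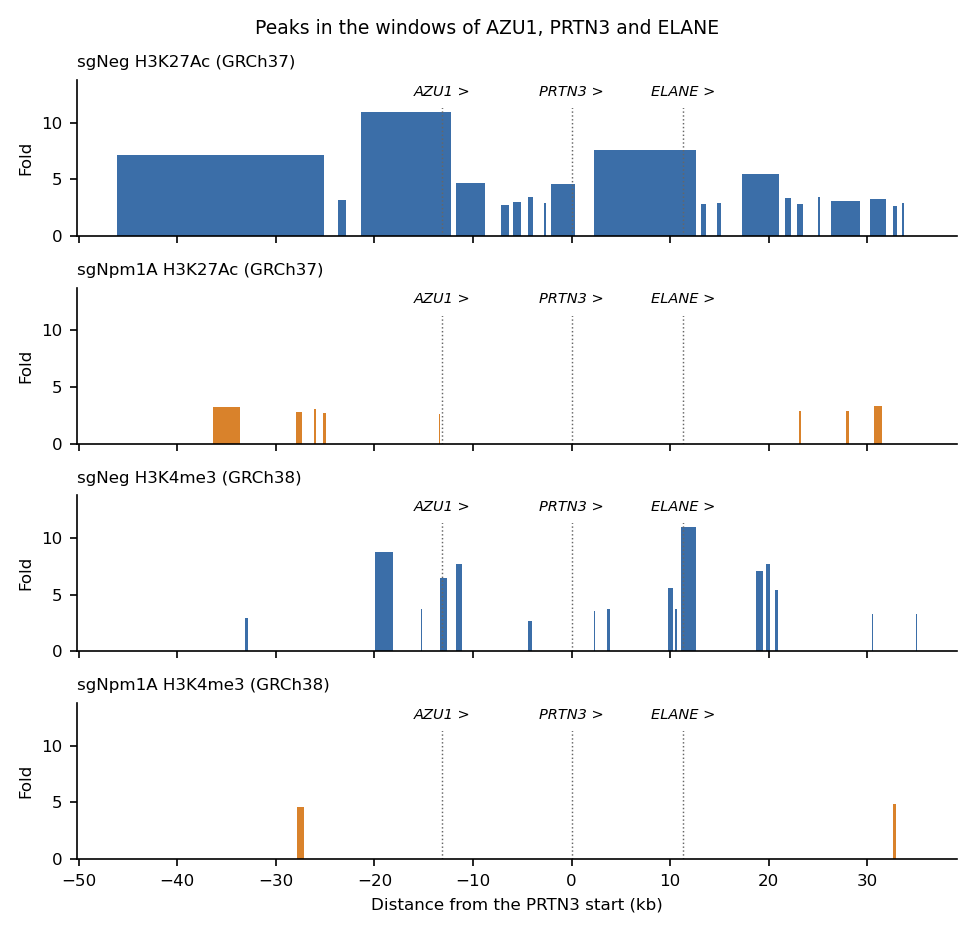
Peaks in the windows of AZU1, PRTN3 and ELANE in the 4 lists, as distance from the PRTN3 start (kb) against fold. Each bar is 1 peak drawn to its width, dotted lines mark the main start of each gene with its direction, and the sgNeg lists show tall peaks at AZU1 and ELANE that the sgNpm1A lists lack.

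MPO encodes myeloperoxidase, the most abundant azurophil granule enzyme. It lies on the minus strand of chromosome 17, 56347216 to 56358296 on GRCh37. In sgNeg H3K27Ac its start lay in a peak of 14254 bp (56354806 to 56369059) with a fold of 6.25, at rank 2237 by fold and 325 by width. Most of that peak extended upstream, to 10.8 kb before the start. In sgNpm1A 3 short peaks lay near MPO starts, the highest of which was 655 bp wide with a fold of 3.19, at a percentile of 76.2 against 99.3. MPO H3K4me3 was weak in sgNeg: the promoter peak was 131 bp wide with a fold of 3.12, or 14 fragments (7.65 to 23.5), at a percentile of 34.4. The strongest H3K4me3 peak of its window lay upstream, at −8.135 to −7.877 kb from the start, with a fold of 4.58. In sgNpm1A H3K4me3 the MPO window held 1 peak, 11.1 kb from the start.

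CTSG encodes cathepsin G, a serine protease, and lies on the minus strand of chromosome 14 (25042724 to 25045456 on GRCh37), and no peak of its window lay at the start of another protein-coding gene. In sgNeg H3K27Ac its promoter peak was 5103 bp wide with a fold of 5.51, at rank 3956. In sgNeg H3K4me3 the peak was 2515 bp wide, rank 263 of the list by width, with a fold of 8.53 and 40 fragments (28.6 to 54.5). In sgNpm1A the promoter held an H3K27Ac peak of 327 bp and a fold of 3.15, at a percentile of 73.2 against 98.8, and no H3K4me3 peak. CTSG was the early granule gene with the lowest sgNeg H3K27Ac coverage, 20.7% of its window, against 5.72% in sgNpm1A.

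LYZ, which encodes lysozyme and is made by both neutrophil precursors and monocytes, had the least covered window of the members in both sgNeg lists. It lies on the plus strand of chromosome 12, 69742161 to 69748014 on GRCh37. Its H3K27Ac promoter peak in sgNeg was 572 bp wide with a fold of 3.45, at rank 25425 and a percentile of 92.2, and it had no H3K4me3 promoter peak. The strongest peaks in its window, with a fold of 5.65 for H3K27Ac and 4.99 for H3K4me3, both lay at the start of the neighbour YEATS4, and the H3K4me3 peak began 11.4 kb downstream of the LYZ start. In sgNpm1A the LYZ window held no peak of either mark, and the nearest were 35.9 kb (H3K27Ac) and 46.8 kb (H3K4me3) from the start.

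S100A9, S100A12 and S100A8 lie in the S100 cluster of chromosome 1q21, from 153330330 to 153363549 on GRCh37, and their windows overlap as well. S100A9 encodes the larger calprotectin subunit. Its sgNeg H3K27Ac promoter peak was the widest of any member, 17739 bp (153326992 to 153344730, rank 161 by width), but had a fold of only 3.66, at rank 17963 by fold. In sgNpm1A the promoter peak was 796 bp wide with a fold of 3.16, at a percentile of 74.0 against 94.5. In sgNeg H3K4me3, 3 narrow peaks lay at the S100A9 promoter, the highest of which was 255 bp wide with a fold of 4.58 and 21 fragments (13 to 32.1). In sgNpm1A the nearest H3K4me3 peak was 2.98 kb from the start.

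S100A8 encodes the smaller calprotectin subunit. In sgNeg H3K27Ac its start lay in a peak of 10282 bp (153355403 to 153365684) with a fold of 4.47 and a percentile of 97.4. In sgNpm1A no H3K27Ac peak lay within 1 kb, but one of 7816 bp with a fold of 3.44, the widest in any member window of that list, began 1380 bases upstream. With promoters taken as 2 kb it counts as a promoter peak, at a percentile of 89.2. The S100A8 H3K4me3 promoter peak in sgNeg was 304 bp wide with a fold of 3.12, or 14 fragments (7.65 to 23.5), and in sgNpm1A there was none. The GRCh38 record of S100A8 is 32552 bp long against 1042 bp on GRCh37, which widens its H3K4me3 window.

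S100A12 encodes calgranulin C, a relative of the calprotectin subunits. It had the lowest sgNeg H3K27Ac promoter percentile of the members, 78.0, with a fold of 3.04 and a width of 4251 bp, and it was the member with the highest covered share of its window, 86.3%. In sgNpm1A its promoter peak was 1692 bp wide with a fold of 2.92, at a percentile of 46.9. For H3K4me3 a peak with a fold of 2.91, or 13 fragments (6.92 to 22.2), lay near its start in sgNeg and none in sgNpm1A.

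**Figure D2:**
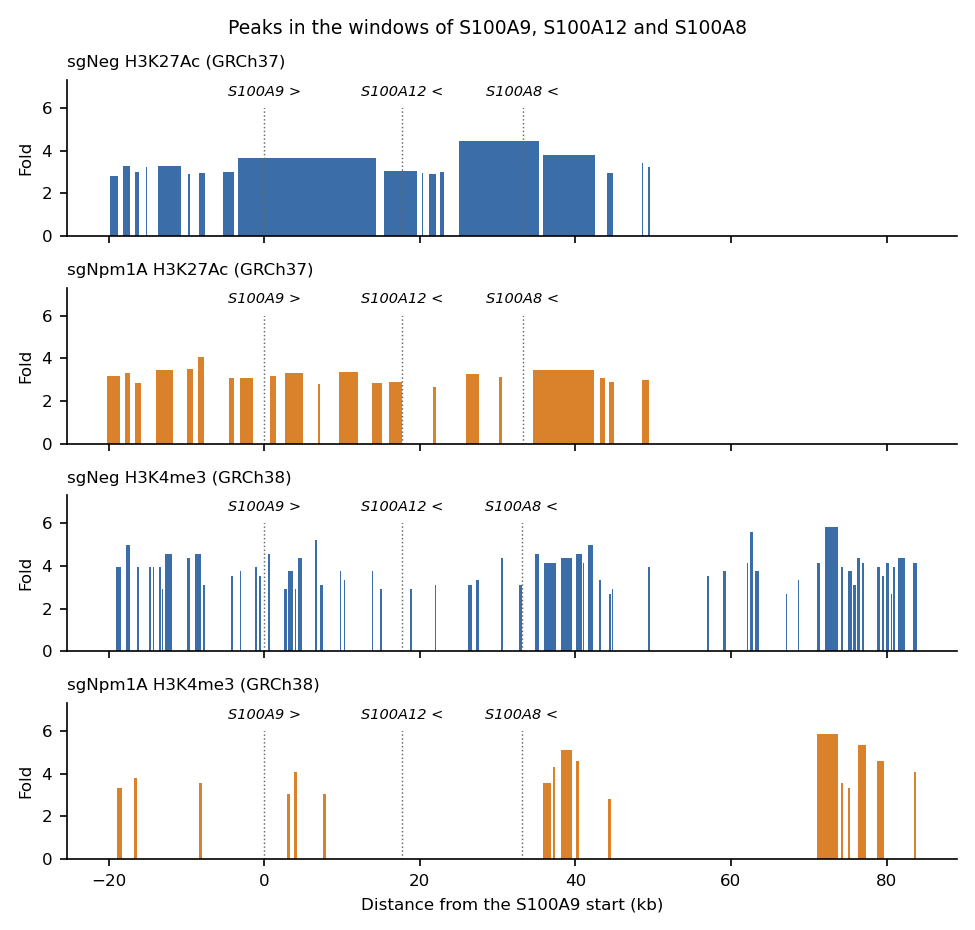
Peaks in the windows of S100A9, S100A12 and S100A8 in the 4 lists, as distance from the S100A9 start (kb) against fold. Each bar is 1 peak drawn to its width, and dotted lines mark a start of each gene with its direction. Both sgNpm1A lists hold peaks in the windows, with folds of at most 4.07 for H3K27Ac and 5.85 for H3K4me3. The peak of 5.85 lies upstream of the long GRCh38 record of S100A8, more than 20 kb from the start marked.

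Counted together, 9 of 9 members had an H3K27Ac promoter peak in sgNeg, where 79.1% of all protein-coding genes had one. In sgNpm1A it was 5 of 9 (MPO, AZU1, CTSG, S100A9 and S100A12), against 57.0% of all genes. For H3K4me3 it was 7 of 9 in sgNeg (68.3% of all genes) and 0 of 9 in sgNpm1A (9.49% of all genes). The 7 leave out PRTN3, whose second start was annotated for H3K27Ac alone and lay under a sgNeg H3K4me3 peak. Of the 9 members with a sgNeg H3K27Ac promoter peak, 4 had none in sgNpm1A (ELANE, PRTN3, LYZ and S100A8), where 34.0% of all such genes had none. The highest sgNeg H3K27Ac promoter peak is the same peak for ELANE and PRTN3. Of the 7 members with a sgNeg H3K4me3 promoter peak, 7 had none in sgNpm1A, against 88.6% of all such genes. The promoter percentile was lower in sgNpm1A for 9 of 9 members with a sgNeg H3K27Ac peak and for 7 of 7 with a sgNeg H3K4me3 peak, and it was lower for 82.9% and 96.2% of all such genes. In the H3K4me3 lists the shares of the members are thus close to those of all genes. The median percentile over the 9 members went from 98.8 to 3.21 for H3K27Ac and from 34.4 to 0 for H3K4me3.

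**Figure D3:**
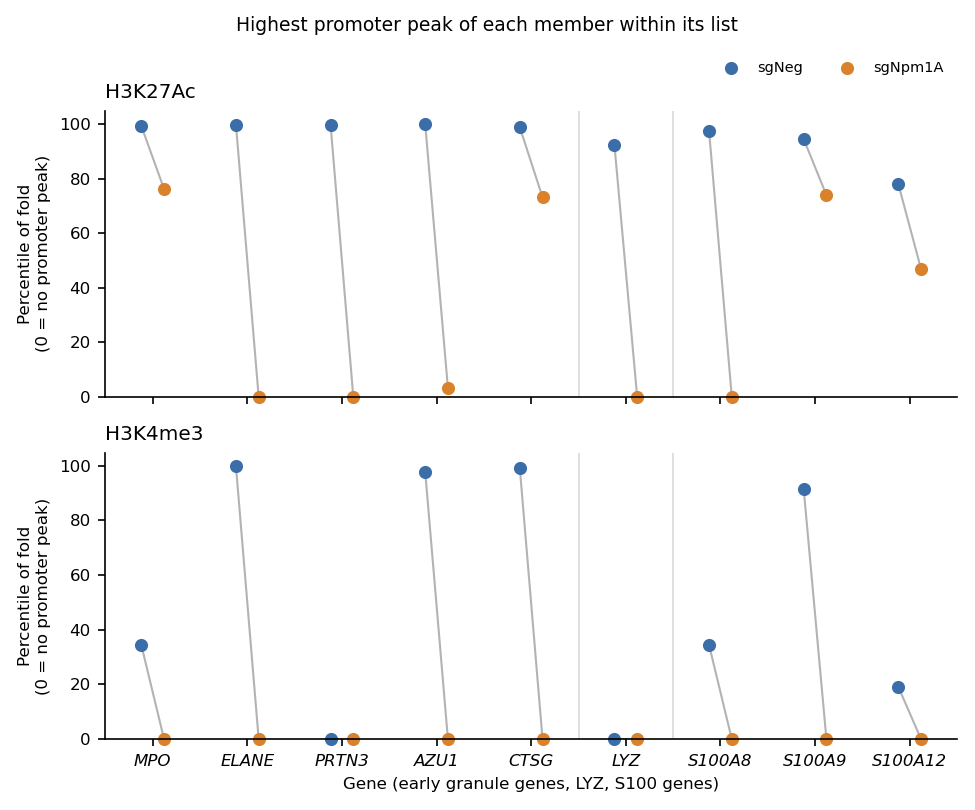
Percentile of the highest promoter peak of each member within its list (0 where there is none), for H3K27Ac (top) and H3K4me3 (bottom). Each point is 1 library, grey lines join the 2 guides, and the sgNpm1A point is below the sgNeg point for every member that had a sgNeg peak.

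Coverage of the windows was lower in sgNpm1A for 9 of 9 members with H3K27Ac (67.1% of all genes) and for 9 of 9 with H3K4me3 (94.0% of all genes). For H3K27Ac the sgNeg and sgNpm1A values were 43.1% and 7.85% at MPO, 60.8% and 3.00% at ELANE, 69.3% and 0.795% at PRTN3, and 79.1% and 7.47% at AZU1. They were 64.0% and 37.5% at S100A8, 73.2% and 41.7% at S100A9, and 86.3% and 38.7% at S100A12. The ratio of sgNpm1A to sgNeg coverage was 0.449 to 0.586 for the 3 S100 members and 0.0115 to 0.276 for the 5 early granule genes, so that the groups did not overlap in this ratio. Of all genes with a sgNeg peak in the window, 14.5% had a ratio of 0.276 or less and 11.4% had one in the range of the S100 members. The windows of the S100 members share peaks, as do those of AZU1, PRTN3 and ELANE, so the values within a group are not separate measurements. For CTSG the values were 20.7% and 5.72%, and for LYZ 12.1% and 0. For H3K4me3 the early granule genes had 5.46% to 16.04% in sgNeg and 0 to 2.11% in sgNpm1A, and the S100 members 18.8% to 22.4% and 5.46% to 12.4%. The H3K4me3 ratios were 0 to 0.227 for the early granule genes, where 38.2% of all genes had 0.227 or less, and 0.263 to 0.554 for the S100 members, a range that held 28.3% of all genes.

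**Figure D4:**
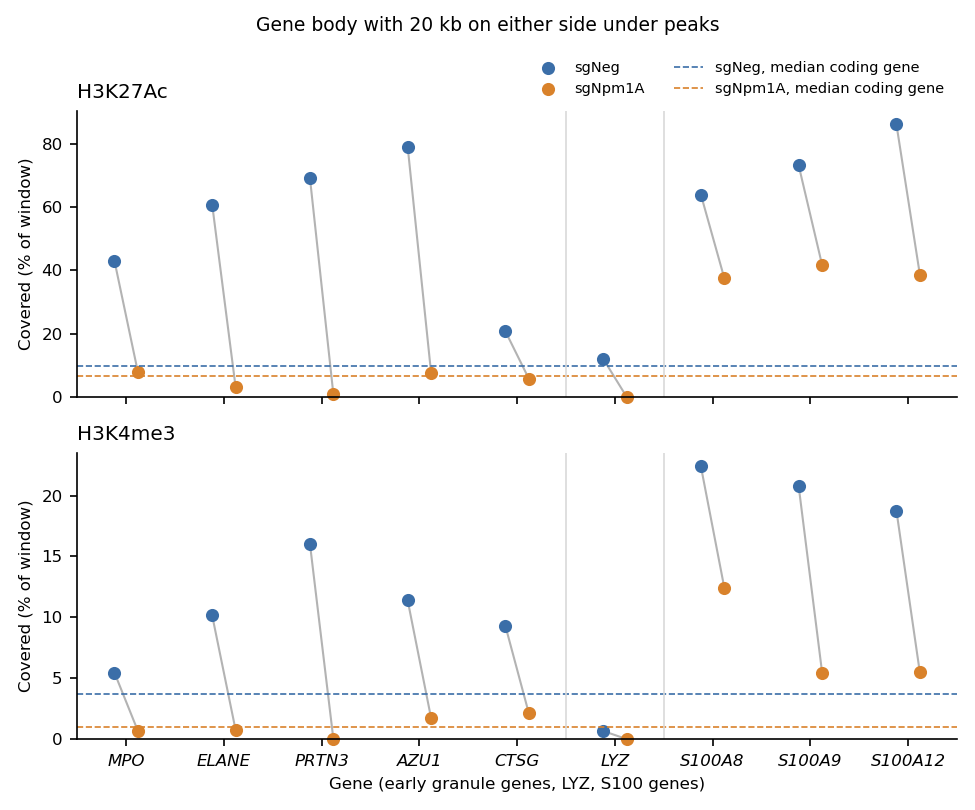
Percent of each member's window under peaks, for H3K27Ac (top) and H3K4me3 (bottom), with dashed lines at the median over all protein-coding genes of each list. Each point is 1 library, and the S100 members stay above the sgNpm1A median in both marks while the early granule genes lie near or below it for H3K27Ac.

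The contrast between the early granule genes and S100A8 with S100A9 differed by guide and measure. In sgNeg the early granule genes had the higher median promoter percentile, 99.8 against 96.0 for H3K27Ac and 97.7 against 62.9 for H3K4me3. In sgNpm1A H3K27Ac the order of the medians was the opposite, 3.21 against 37.0. Only 3 of 5 early granule genes and 1 of 2 calprotectin genes had a peak at all. The 37.0 is the midpoint of 0 at S100A8 and 74.0 at S100A9. MPO had 76.2, CTSG 73.2, AZU1 3.21 and ELANE and PRTN3 0, so the genes of the groups were not separated. By width in sgNeg H3K27Ac the groups hardly differed, with a difference of medians of −0.088 percentile points. With promoters of 2 kb the difference was −78.4 in place of −33.8 in sgNpm1A H3K27Ac, where the S100A8 peak upstream then counts, and 4.68 in place of 34.8 in sgNeg H3K4me3.

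Over whole windows the sgNpm1A lists covered more of the calprotectin pair than of the early granule genes. Peaks covered 49.0% of the early granule windows in sgNeg H3K27Ac and 6.86% in sgNpm1A, a ratio of 0.140. For S100A8 and S100A9 the values were 68.0% and 41.1%, a ratio of 0.605, and for the median protein-coding gene the ratio was 0.686. The ratio for H3K4me3 was 0.156 for the early granule genes (9.16% and 1.43%), 0.465 for S100A8 and S100A9 (23.3% and 10.8%) and 0.272 for the median gene. The mean fold was also taken over the peaks touching the windows, each weighted by its full width, including any part outside. It was 5.88 in sgNeg and 3.04 in sgNpm1A H3K27Ac for the early granule windows, and 3.67 and 3.26 for the calprotectin windows. Ending the S100A8 body at its most upstream start in the promoter table, an alternative chosen after the values were seen, gave an H3K4me3 ratio of 0.351 for the pair. With flanks of 50 kb the H3K27Ac ratios were 0.305 and 0.776. With the 20000 peaks of lowest p-value in each list, the ratio of the pair was 1.99 for H3K4me3 but 0.0234 for H3K27Ac, where that of the early granule genes was 0. The sgNpm1A peaks behind the 1.99 include that from 153428875 to 153431565, upstream of the long S100A8 record. The shortened body was not tried at this cut, which also keeps unlike parts of H3K4me3 lists of 353628 and 106641 peaks. With a q-value under 1e-05 both H3K27Ac ratios were 0.

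Single peaks were then compared. Of 40 sgNeg H3K27Ac peaks in the early granule windows, 15 overlapped a sgNpm1A peak (37.5%, Wilson interval 24.2 to 53.0), against 15 of 18 for S100A8 and S100A9 (83.3%, 60.8 to 94.2) and 50.7% of the whole list. For H3K4me3 it was 2 of 36 (5.56%, 1.54 to 18.1), against 18 of 64 (28.1%, 18.6 to 40.1) and 22.6% of the whole list. The H3K4me3 count of the pair includes peaks brought in by the long GRCh38 record of S100A8. Some overlapped peaks, such as that from 153429893 to 153431557, lay more than 20 kb upstream of the S100A8 starts in the promoter table. The share with the S100A8 body shortened was not computed. In the reverse direction, 20 of 23 sgNpm1A H3K27Ac peaks of the early granule windows and 20 of 21 of the calprotectin windows overlapped a sgNeg peak. Of the whole sgNpm1A list 51.4% did, and sgNeg peaks covered 49.0% and 68.0% of these windows. Peaks are not independent within a window, and wide peaks overlap others more easily.

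Peak density around the genes differed too. Within 5 Mb of S100A8 there were 2.47 and 2.40 times as many H3K27Ac peaks per Mb as in the whole sgNeg and sgNpm1A lists, and 3.71 and 3.78 times as many H3K4me3 peaks. Around ELANE the ratios were 2.46 and 2.03 for H3K27Ac and 2.31 and 1.85 for H3K4me3, and around LYZ 0.623, 0.601, 0.447 and 0.329. Around MPO they ran from 1.23 to 1.51, and around CTSG from 0.448 to 0.777. The part of this regional density in the S100 peaks of sgNpm1A was not tested.

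Of the 12 other S100 genes of 1q21, 12 had an H3K27Ac peak at the promoter under sgNeg and 11 under sgNpm1A (79.1% and 57.0% of all genes). Their median window coverage was 73.2% in sgNeg and 46.8% in sgNpm1A. S100A11, which had the highest sgNeg percentile of that list (99.4), had no promoter peak in sgNpm1A, while S100A3 went from 97.1 to 95.8 and S100A13 from 96.9 to 97.4. Among 13 other primary granule genes, 9 had an H3K27Ac promoter peak in sgNeg and 5 of these 9 had none in sgNpm1A. Of all genes with such a sgNeg peak, 34.0% had none in sgNpm1A. CTSC, the gene of the protease that activates elastase and its relatives, went from a percentile of 99.1 to no peak, and CD63, a granule membrane protein, from 99.04 to 9.63. By contrast, DEFA4, the gene of a neutrophil defensin, had no promoter peak in sgNeg and one at a percentile of 97.3 in sgNpm1A, and its window coverage went from 19.6% to 45.4%. EPX, the gene of eosinophil peroxidase, went from 60.002 to 88.6, with a coverage of 10.8% and 26.2%. Of 13 secondary and tertiary granule genes, 10 had a sgNeg peak and 2 of these had none in sgNpm1A, against the same 34.0%. LTF (lactoferrin) had a percentile of 78.4 in sgNeg and 84.3 in sgNpm1A, CHIT1 (chitotriosidase) of 94.3 and 95.5, and MMP9, a gelatinase, of 97.2 and 68.1.

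Monocyte effector genes had a sgNeg H3K27Ac promoter peak in 11 of 12 cases (79.1% of all genes). In sgNpm1A 3 of the 11 had none, near the 34.0% of all genes with a sgNeg peak. CD68 went from 99.1 to 56.7 and VCAN from 98.96 to 26.8, whereas CSF1R had 90.3 and 87.5 and CD14 had 71.3 and 86.8. Of the regulators of granule genes, 10 of 10 had an H3K27Ac promoter peak in sgNeg, at a median percentile of 99.7 (99.8 for the early granule genes). In sgNpm1A 3 of 10 had none, again near the share of all genes, 34.0%. SPI1, which encodes PU.1, went from 99.97 to 34.1, and CBFB, the partner of RUNX factors, from 99.95 to no peak. CEBPB, a C/EBP factor, went from 99.02 to 70.7, and RUNX1, a RUNX factor, from 99.7 to 56.3. For H3K4me3, 9 of the 10 regulators had no promoter peak in sgNpm1A, near the 88.6% of all genes with a sgNeg peak.

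**Figure D5:**
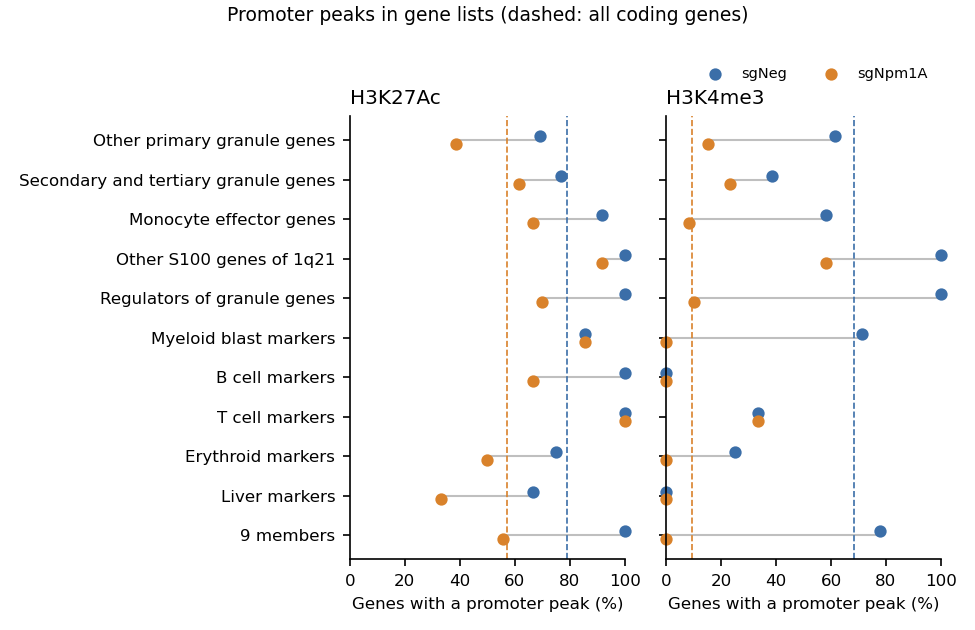
Percent of the genes of each list with a promoter peak, for H3K27Ac (left) and H3K4me3 (right), in sgNeg (blue) and sgNpm1A (orange). Dashed lines show the percent over all protein-coding genes, and the 9 members go from 9 to 5 genes for H3K27Ac and from 7 to 0 for H3K4me3.

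By the promoter percentiles in the 4 lists, over 19101 genes, the gene closest to ELANE was ZC3H7B, at a Euclidean distance of 0.029 percentile points. That of AZU1 was FAM174C (0.370), that of CTSG was PPRC1 (0.258) and that of MPO was MATCAP1 (1.52). For S100A9 and S100A12 they were MON1A (1.98) and CCDC33 (2.70). The likeness rests on 4 values per gene.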

How the data were processed

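ChIPmentation libraries of cells labelled OCI-AML3 and transfected with sgNeg or sgNpm1A were analysed as 4 peak lists. Per the submitters' notes, reads were processed with bcl2fastq 2.17, Trimmomatic 0.33, Bowtie 1.1.2, MACS2 2.1.0 and deepTools, with hg38 as the build. The authors called peaks in each library on its own. Their calling threshold, and whether the inputs served as controls, are not given in the sources used here. The deposited fold enrichment is the ratio of the pileup to its background, averaged over a broad peak for H3K27Ac and taken at the summit for H3K4me3. For each peak, the authors also deposited a −log10 p-value and, after adjustment, a −log10 q-value. The deposited summit offset of H3K4me3 peaks was not used.

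H3K27Ac peaks ended at 249218478 and 249212461 on chromosome 1, and H3K4me3 peaks at 83201880 and 83201881 on chromosome 17. The former lists therefore lie on GRCh37 and the latter on GRCh38, and positions were compared only within a mark. GENCODE 44 gave the genes and all transcript starts on GRCh37. RefSeq tables gave those on GRCh38, where the start of the gene record and the starts of the promoter table were used, and 371 of 20037 coding genes without a strand were left out. H3K4me3 folds equalled (pileup + 1)/(background + 1) with 1 background per list for 100% of peaks (tolerance 0.02 fragments), so that they carry no local or input correction.

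The highest promoter peak was ranked by fold within its list. The percent of a window under peaks, and the share of peaks overlapped by at least 1 bp, were computed with Python 3.11.15, pandas 2.3.3, numpy 2.4.6 and scipy 1.17.1, and the functions were tested on simulated data. Genes named from the lists of related genes were the 2 highest of each by sgNeg and by sgNpm1A H3K27Ac percentile, and cell type markers were given by counts. Neighbours in a member window and the nearest gene by percentiles were named too. The members and these lists were chosen with earlier results of these data known. Total read depth was not given, so that its effect on the number of peaks could not be removed. The gene closest to S100A8 in promoter percentiles is not reported here.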

Additional observations from a re-analysis of the deposited data

How the results depend on the processing

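Of 95 values computed under an alternative, 28 were equal or within the limits set for no change, 66 moved and 1 reversed. The contrast of promoter percentiles (early granule genes minus S100A8 and S100A9, 3.78 in sgNeg H3K27Ac, −33.8 in sgNpm1A H3K27Ac, 34.8 in sgNeg H3K4me3 and 0 in sgNpm1A H3K4me3) reversed in sgNeg H3K27Ac by width, to −0.088, and was −30.7 and 23.6 by width in sgNpm1A H3K27Ac and sgNeg H3K4me3. Ranking by −log10 p gave 3.80 and −33.8 for H3K27Ac. Promoters of 2 kb gave −78.4 in sgNpm1A H3K27Ac and 4.68 in sgNeg H3K4me3. The start of the gene record alone, added after the data were seen, gave 3.34, −37.0 and 52.0. A q-value under 0.01 gave −37.0 in sgNpm1A H3K27Ac, and one under 1e-05 gave 51.0, 0 and 52.0.

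Member promoters with a peak went from 5 to 3 in sgNpm1A H3K27Ac at q under 0.01. Under 1e-05 they went from 9 to 6 in sgNeg H3K27Ac, to 0 in sgNpm1A H3K27Ac and from 7 to 4 in sgNeg H3K4me3. The percent of all member windows covered was 47.9, 14.6, 12.7 and 4.37 in sgNeg H3K27Ac, sgNpm1A H3K27Ac, sgNeg H3K4me3 and sgNpm1A H3K4me3. It was 40.5, 10.4, 12.3 and 4.28 at q under 0.01, and 24.8, 0, 8.81 and 2.62 under 1e-05. With the 20000 peaks of lowest p-value it was 33.6, 0.286, 4.06 and 2.70, with flanks of 10 kb 59.6, 15.8, 14.6 and 4.09, and with flanks of 50 kb 35.8, 15.4, 10.9 and 3.69. With the S100A8 body shortened it was 11.2 and 2.87 for H3K4me3.

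The ratio of sgNpm1A to sgNeg coverage was, for the early granule genes and then S100A8 with S100A9, 0.0900 and 0.543 in H3K27Ac at q under 0.01, 0 and 0 under 1e-05, 0 and 0.0234 with the 20000 peaks, 0.100 and 0.538 with 10 kb, and 0.305 and 0.776 with 50 kb. In H3K4me3 it was 0.163 and 0.461, 0.158 and 0.393, 0.187 and 1.99, 0.0714 and 0.464, and 0.186 and 0.512 in the same order, and 0.351 for the pair with the S100A8 body shortened. The pair had the higher ratio in each of these, except for H3K27Ac under 1e-05, where the sgNpm1A list left no peak in either group.

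Overlaps of at least 50% of both peaks were also required. The share of sgNeg H3K27Ac peaks overlapped was then 16.9% over all members, 10.0% for the early granule genes and 38.9% for the pair. For H3K4me3 it was 9.90%, 5.56% and 12.5% in the same order. At q under 0.01 the H3K27Ac shares were 34.5% over all members, 29.4% for the early granule genes and 55.6% for the pair. The share of the whole list was not computed at these settings. No paired analysis was possible because each group held 1 library. Single libraries, an unknown depth and a mark-specific build limit these values, and the H3K27Ac lists carry a name tag that the H3K4me3 lists do not, whose meaning was not stated, while all labels name OCI-AML3.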
